A study of Homo sapiens with 6 samples.

Results

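Retinoid genes were examined in cardiomyocytes derived from the human induced pluripotent stem cell line WTC11 and kept in 1 of 2 media. The genes were 9 chosen by role, namely the retinoic acid binding proteins CRABP1 and CRABP2, the retinol transporter STRA6, the enzymes DHRS3, ALDH1A1, ALDH1A2 and CYP26A1, and the receptors RARA and RARB, of 38557 genes listed in the count files. The first group was grown in RPMI plus B27 and the second in DMEM plus fatty acids, with 3 biological replicates each, numbered 1 to 3 in both media. All 6 cultures came from this single line, labelled as wild type. The composition of the media and the time in them are not given in the sources used here. B27 is a serum-free supplement that usually supplies a retinoid, but the labels do not say which version was used. The comparison asked which transcripts differ between the 2 media. Their labels differ in both the base medium and the supplement, and the parts of these cannot be told apart.

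Cells take up vitamin A as retinol, oxidise it to retinal and then irreversibly to retinoic acid, which binds nuclear receptors of the RAR family paired with RXR partners. Several genes of the pathway, among them CYP26A1, RARB, DHRS3, STRA6 and CRABP2, are known targets of these receptors, so that their transcripts are widely used as readouts of retinoic acid signalling. In the developing heart the epicardium is a known site of retinoic acid synthesis by ALDH1A2, and retinoic acid favours atrial over ventricular identity.

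RARB and CYP26A1 carry the classical response element close to their start sites, and both stretches are printed because they are the textbook link between receptor and readout. The search used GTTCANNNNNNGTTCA on both strands, which is a direct repeat with a fixed spacer and was chosen knowing these 2 genes. RefSeq windows of GRCh38.p14, running from 250 bases before to 50 bases after each annotated start, were available for all 9 genes. Capitals mark the match, lower case the 7 bases on each side.
RARB: gggtaggGTTCACCGAAAGTTCActcgcat
CYP26A1: ttaaagaTGAACTTTGGGTGAACtaattgt
The RARB stretch lies at chr3:25428204-25428233 on the plus strand, and its match spans bases 52 to 37 before a RefSeq start. It overlaps no RARB exon of GENCODE 29. The CYP26A1 stretch lies at chr10:93073796-93073825 on the plus strand, with the match 90 to 75 bases before a start and in the reverse orientation, within an exon of another CYP26A1 transcript. Of 35116 windows of the same length, 20 (0.0570%) held this motif. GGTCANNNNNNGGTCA, the same arrangement with the other common core, was in 19 windows (0.0541%), none of them belonging to the 9 genes. The other 7 genes had neither motif in these windows.

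Levels are given as CPM, counts relative to the size of each library, scaled by TMM, a factor that evens out library composition. A gene was called when its p from edgeR's quasi-likelihood test, adjusted by Benjamini-Hochberg over all 16107 tested genes, was under 0.05. Libraries held 23232324 to 31035389 gene counts. Without a block 219 genes, 1.36% of those tested, were called, and adding the replicate number to the model as a block raised this to 770 genes, 4.78%. The fit without the low-count filter called 539 of 26979 genes, 2.00%, and the DESeq2 Wald test 1212 of 16103, 7.53%. The 3 libraries of one medium did not overlap those of the other for 25.6% of tested genes. Cardiomyocyte markers were abundant in every library (8 genes, summed level 16073 to 16828 CPM in RPMI plus B27 and 17653 to 21193 CPM in DMEM plus fatty acids). They did not move together, with 4 estimates above and 4 below 0. In DMEM plus fatty acids MYH6 was higher (mean 4758 CPM in RPMI plus B27 and 8653 CPM there) and ACTN2 (2218 and 1109 CPM) and TNNI1 (2137 and 1822 CPM) were lower, each without overlap. Only ACTN2 was called by edgeR, with the block (adjusted p 0.0494). The 5 pluripotency markers summed to 0.669 to 2.79 CPM per library, and the 6 endothelial markers to 29.7 to 464 CPM. Nearly all of the latter was KDR, which was higher in DMEM plus fatty acids in every pair and called with the block (log2 fold change 1.49 ± 0.21 SE, edgeR adjusted p 0.0245, and 0.434 without the block). The other endothelial markers did not share that direction. TEK, at most 1.13 CPM, was lower in DMEM plus fatty acids without overlap (log2 fold change -2.13 ± 0.51 SE, edgeR adjusted p 0.0960). CDH5 had 11, 8 and 1 counts in RPMI plus B27 and ERG 8, 2 and 1, against 0 in every DMEM plus fatty acids library. PECAM1 and VWF overlapped between media, and PECAM1, CDH5, VWF and ERG stayed at or under 0.414 CPM. Markers of fibroblasts, smooth muscle, epicardium and endoderm were present, and their levels stand beside the results they move with. Nothing in the labels states that replicates came from separate differentiations, so p values describe the spread between these samples.

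In 5 of the 9 genes the media did not overlap, and each of the 5 (CRABP2, DHRS3, RARA, RARB and CYP26A1) was lower in DMEM plus fatty acids. Scaling by total counts only left the same 5 separated. CRABP1 and CYP26A1 had too few counts to be tested, so 7 of the 9 entered the fit. Of these 7, 4 did not overlap between media, beside 25.6% of all tested genes. CRABP2 alone passed without the block (1.36% of all tested genes did), and CRABP2, DHRS3 and RARA passed with it (4.78% of all did). The median log2 fold change was -1.04 over the 7 tested retinoid genes and 0.01 over all tested genes. That -1.04 is the estimate of ALDH1A1 itself (SE 1.55), which depended on single libraries. The genes were also chosen with earlier results of these data known, so the 2 medians are a description only.

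**Figure D1:**
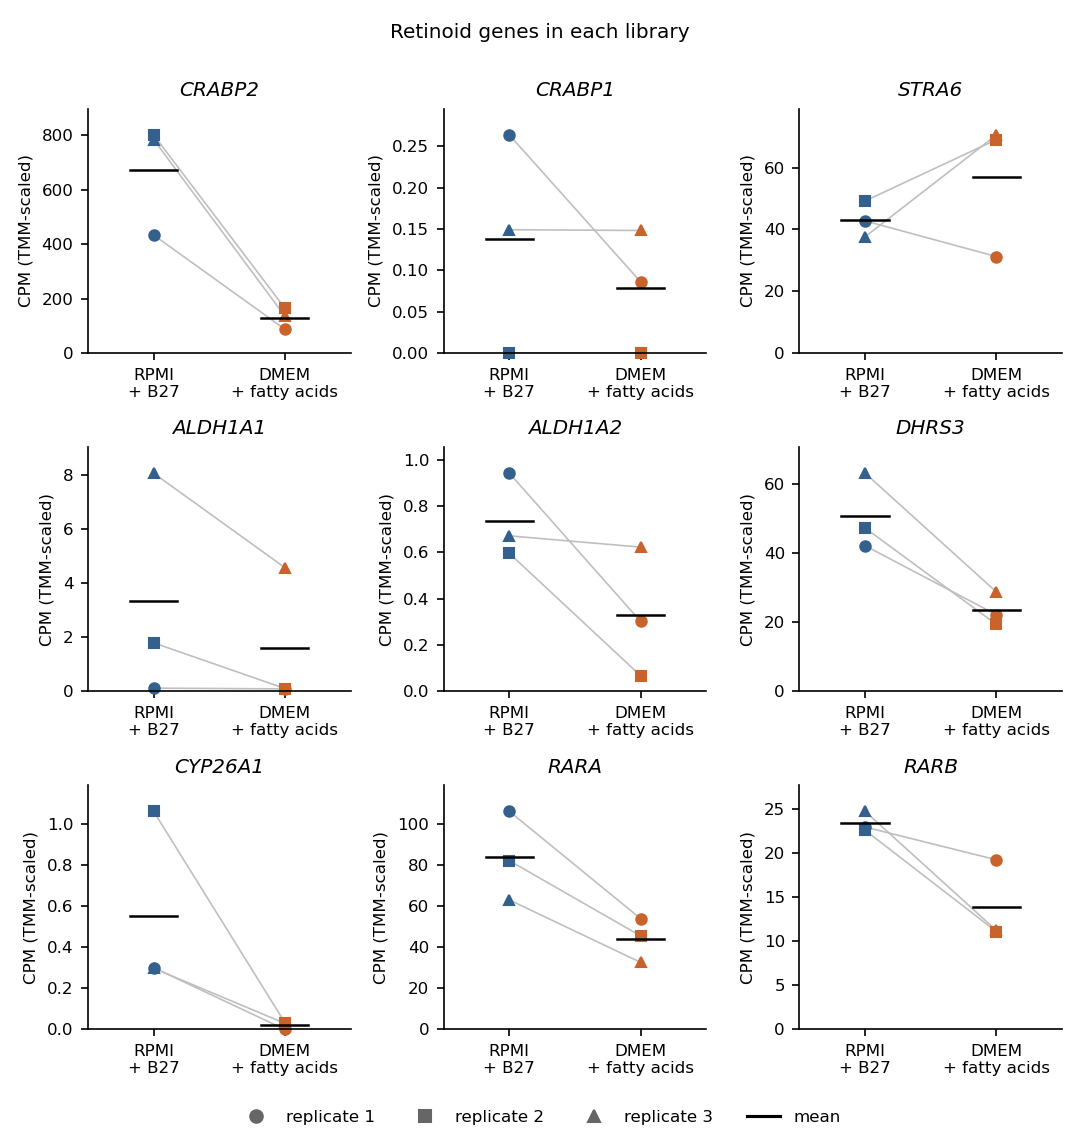
CPM of the 9 retinoid genes in each of the 6 libraries (y axes linear, each from 0), with lines joining libraries that share a replicate number and black bars for the mean of each medium. CRABP2, DHRS3, RARA, RARB and CYP26A1 show no overlap between media, while ALDH1A1 is highest in replicate 3 of both.

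CRABP2 (chr1:156699606-156705816, minus strand, hg38) encodes the binding protein that carries retinoic acid to its receptors in the nucleus. Its level was 433.5, 800.9 and 784.1 CPM in RPMI plus B27 (replicates 1 to 3) and 87.4, 164.7 and 135.7 CPM in DMEM plus fatty acids. The lowest RPMI plus B27 library was thus well above the highest of the other medium, and replicate 1 was the lowest within both. CRABP2 fell by 2.38 ± 0.32 (SE, n = 3 each) on the log2 scale, and the edgeR adjusted p was 0.0305, or 0.00582 when the block was added. Within pairs of equal number the log2 ratios were -2.31, -2.28 and -2.53, a narrow range beside the spread of levels within a medium. Without RPMI plus B27 replicate 1 the edgeR adjusted p was 0.0414. It ranged from 0.0518 to 0.106 without any single one of the other 5 libraries, which ends the call, while the log2 fold change stayed between -2.62 and -2.17.

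The genes whose pattern over the 6 libraries was most like that of CRABP2 were GDF6 (a bone morphogenetic protein family ligand), ARRDC4 (an alpha-arrestin), SPARC (a matrix glycoprotein), ENC1 (a kelch-family actin-binding protein) and PRSS23 (a secreted serine protease). Likeness was the root mean square difference of log2 CPM, each gene centred on its own mean, among 10027 genes averaging 10 CPM or more. It was 0.40 for GDF6, 0.41 for ARRDC4 and SPARC, 0.43 for ENC1 and 0.45 for PRSS23. Their own log2 fold changes ran from -2.48 (GDF6) to -1.64 (PRSS23), and PRSS23 was not called (edgeR adjusted p 0.113).

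Stromal markers moved in the same direction as CRABP2. The 8 fibroblast markers summed to 4308 to 8264 CPM in RPMI plus B27 and to 728 to 1935 CPM in DMEM plus fatty acids. All 8 were lower without overlap (25.6% of all tested genes did not overlap) and 5 of them were called without the block (1.36% of all were). The 6 smooth muscle markers summed to 1946 to 2284 CPM and 578 to 1353 CPM, and the 8 epicardial markers to 281 to 449 CPM and 158 to 231 CPM. Most of the epicardial sum was KRT19 (100 to 281 CPM and 41.6 to 84.7 CPM) and LRRN4 (91.0 to 281 CPM and 81.8 to 141 CPM). Of the defining epicardial genes, WT1 stood at 0.340 to 0.867 CPM in RPMI plus B27 and 0.0669 to 0.148 CPM in the other medium. WT1, TBX18 and KRT19 did not overlap between media, whereas TCF21, UPK3B, MSLN, BNC1 and LRRN4 did. Within RPMI plus B27, replicate 1 had the most fibroblast marker RNA (8264 CPM) and the least CRABP2, whereas within DMEM plus fatty acids the fibroblast sums (728, 1935 and 1796 CPM for replicates 1 to 3) had the same order as CRABP2. All 6 smooth muscle markers also had lower estimates in DMEM plus fatty acids. These marker levels stand equally beside DHRS3, RARA, TGM2, RAI14 and the atrial and ventricular markers described below, of which those that passed with the block were lower in the same medium. The part of these cells in any of these differences was not tested, and in bulk RNA fewer cells of a type cannot be told apart from less RNA per cell.

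CRABP1 (chr15:78340324-78348230), the paralogue that binds retinoic acid in the cytoplasm, was close to absent. Its libraries held 7, 0 and 4 counts in RPMI plus B27 and 2, 0 and 5 in DMEM plus fatty acids. A count of 0 allows up to 0.128 and 0.1003 CPM in those 2 libraries, by counting error alone. The summed counts, 11 and 7, gave a ratio of 1.78 (95% exact interval 0.629 to 5.40), so no difference was detectable at this depth (exact two-sided permutation test on CPM, p = 0.5, n = 3 each). CRABP2 made up nearly all counts of both paralogues, with a lowest Wilson 95% bound of 99.6% among the libraries. Its lowest share was 99.89%, or 4577 of 4582 counts, in DMEM plus fatty acids replicate 3. The mean share differed by -0.0426 percentage points between media (exact two-sided permutation test, p = 0.4).

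CYP26A1 (chr10:93073475-93077890, plus strand) hydroxylates retinoic acid and so starts its breakdown. It had 8, 25 and 8 counts in RPMI plus B27 and 0, 1 and 1 in DMEM plus fatty acids, or 0.301, 1.06 and 0.298 CPM against 0, 0.0334 and 0.0296 CPM. All 3 RPMI plus B27 libraries were above all 3 of the other medium, at levels far under those of CRABP2. The 41 and 2 summed counts gave a 23.2-fold ratio with a 95% exact counting interval of 6.02 to 198. An exact two-sided permutation test on CPM gave p = 0.1, the smallest that 3 against 3 libraries can give. The filter requires 3 libraries of at least 0.358 CPM, which CYP26A1 reached in 1, and in the fit without a filter it passed (log2 fold change -4.33 ± 0.91 SE, edgeR adjusted p 0.0330).

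The CYP26A1 relative CYP26B1, which acts on the same substrate, was measured at 4.26, 2.04 and 3.39 CPM in RPMI plus B27 and 2.33, 0.970 and 2.43 CPM in DMEM plus fatty acids. These ranges overlapped and the gene did not pass (log2 fold change -0.76 ± 0.44 SE, edgeR adjusted p 0.410).

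DHRS3 (chr1:12567910-12617731, minus strand) reduces retinal back to retinol and thereby limits retinoic acid synthesis. It was measured at 42.1, 47.2 and 63.1 CPM in RPMI plus B27 and at 22.1, 19.3 and 28.7 CPM in DMEM plus fatty acids. The media were separated, and replicate 3 was the highest in both. The log2 fold change was -1.12 ± 0.21 (SE), which missed the threshold without the block (edgeR adjusted p 0.0583) and met it with the block (0.0138). Pairs of equal number gave log2 ratios of -0.93, -1.29 and -1.14. DHRS3 also passed without the low-count filter and by the DESeq2 Wald test.

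RARA (chr17:40309192-40357643, plus strand), the most broadly expressed of the retinoic acid receptors, was measured at 106.0, 82.0 and 62.9 CPM in RPMI plus B27 and 53.8, 45.4 and 32.6 CPM in DMEM plus fatty acids. Replicate 1 was the highest and replicate 3 the lowest in both media, and the media did not overlap. The 3 paired log2 ratios were -0.98, -0.85 and -0.95. The fitted log2 fold change of -0.93 did not pass without the block (SE 0.24, edgeR adjusted p 0.118) and passed with it (SE 0.10, edgeR adjusted p 0.0131). RARA-AS1, annotated on the opposite strand, had 2 to 6 counts per library.

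RARB (chr3:25174332-25597932, plus strand) is both a receptor and, through the element printed above, a target of retinoic acid. It was measured at 22.9, 22.5 and 24.7 CPM in RPMI plus B27, a tight group, and at 19.2, 11.1 and 11.2 CPM in DMEM plus fatty acids. All 3 of the latter were lower, with replicate 1 nearest to the other medium. The log2 fold change of -0.76 ± 0.24 (SE) did not pass without the block (edgeR adjusted p 0.166) or with it (0.0850), and its 12 alternatives gave 0.0537 to 0.397. In GENCODE 29 the gene overlaps TOP2B on the opposite strand, which was measured at 209 to 245 CPM, and the strand setting of the counting is not given in the sources used here.

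The balance among the 3 RARs was also compared, since it does not depend on library scaling. RARB made up 16.1%, 20.1% and 26.4% of the counts of RARA, RARB and RARG in RPMI plus B27 and 24.1%, 17.6% and 22.3% in DMEM plus fatty acids (Wilson 95% intervals of 14.9% to 17.3% for the lowest and 24.7% to 28.2% for the highest). The 2 ranges overlapped almost wholly. The mean share differed by 0.455 percentage points (20.9% ± 5.22 and 21.3% ± 3.38, SD, n = 3 each, exact two-sided permutation test, p = 1.0), and leaving out 1 library moved that difference between -1.94 and 3.24 points.

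**Figure D2:**
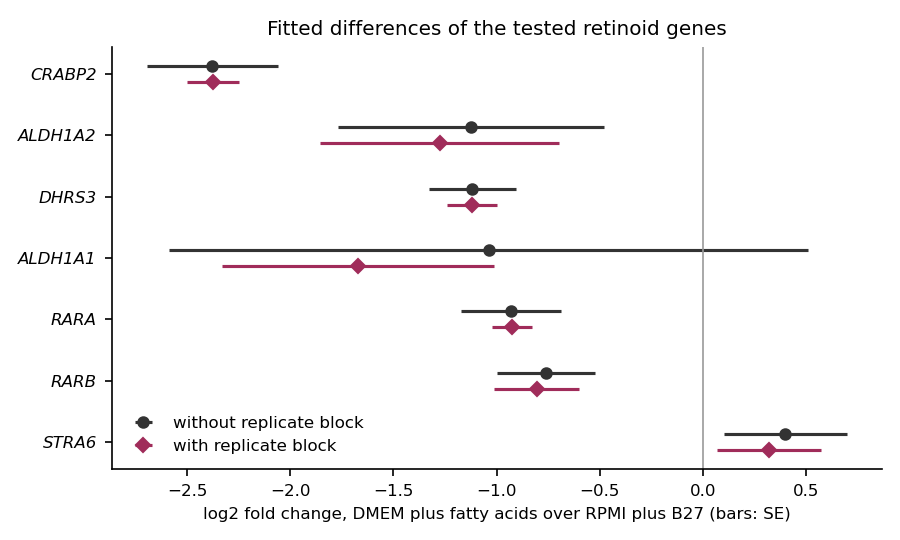
Fitted log2 fold change (x axis, positive where DMEM plus fatty acids was higher) of the 7 tested retinoid genes, with bars for the SE, without and with the block for replicate number. The estimates of CRABP2, DHRS3 and RARA hardly move with the block while their SEs shrink, and STRA6 is the only one above 0.

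STRA6 (chr15:74179466-74212267, minus strand), the membrane receptor through which cells take up retinol from its plasma carrier, did not share the direction of the separated genes. It was measured at 42.8, 49.2 and 37.6 CPM in RPMI plus B27 and 31.2, 69.1 and 70.6 CPM in DMEM plus fatty acids. Replicates 2 and 3 were higher in DMEM plus fatty acids and replicate 1 was lower, so the media overlapped. The log2 fold change of 0.40 ± 0.30 (SE) did not pass in either fit (edgeR adjusted p 0.532 and 0.473). CRABP2, DHRS3, RARA, RARB, ALDH1A1 and ALDH1A2 were lower in DMEM plus fatty acids in all 3 pairs, for ALDH1A1 on as few as 3 against 2 counts.

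ALDH1A1 (chr9:72900662-73080442, minus strand), which oxidises retinal to retinoic acid, varied with the replicate number far more than with the medium. It was measured at 0.113, 1.79 and 8.05 CPM in RPMI plus B27 and 0.0861, 0.1003 and 4.56 CPM in DMEM plus fatty acids. Replicate 3 was the highest in both media. The log2 fold change of -1.04 ± 1.55 (SE) did not pass without the block (edgeR adjusted p 0.772) or with it (0.195). It was 0.78 without RPMI plus B27 replicate 3 and -5.07 without DMEM plus fatty acids replicate 3, both of which leave the high replicate 3 in 1 medium only. Within pairs of equal number the log2 ratios were -0.39, -4.15 and -0.82, all lower in DMEM plus fatty acids. The counts were 3, 42 and 216 in RPMI plus B27 and 2, 3 and 154 in DMEM plus fatty acids. The ratio of pair 1 thus rests on 3 against 2 counts and shows no direction.

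Of the 8 endoderm markers, 6 were also highest in replicate 3 of both media. The exceptions were APOA1, at 7.49, 20.9 and 20.8 CPM in DMEM plus fatty acids, and SOX17, which was lowest in replicate 3 of both media (0.149 and 0 CPM). The liver and gut factor HNF4A was at 0, 0.298 and 4.40 CPM in RPMI plus B27 and at 0.129, 0.0669 and 1.16 CPM in DMEM plus fatty acids. FOXA2 was at 0, 0.128 and 1.72 CPM and at 0, 0.1003 and 1.01 CPM in the same order. TTR, the plasma carrier of the retinol-binding protein complex and a product of the same lineage, stood at 0.113, 0.553 and 4.85 CPM and at 0, 0.1003 and 3.73 CPM. The 8 endoderm markers together summed to 15.9, 44.6 and 116 CPM in RPMI plus B27 and 7.84, 21.7 and 30.7 CPM in DMEM plus fatty acids, most of it AFP and APOA1, and 6 of the 8 were at 0 in at least 1 library. The part of endoderm cells in the ALDH1A1 level was not tested.

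**Figure D3:**
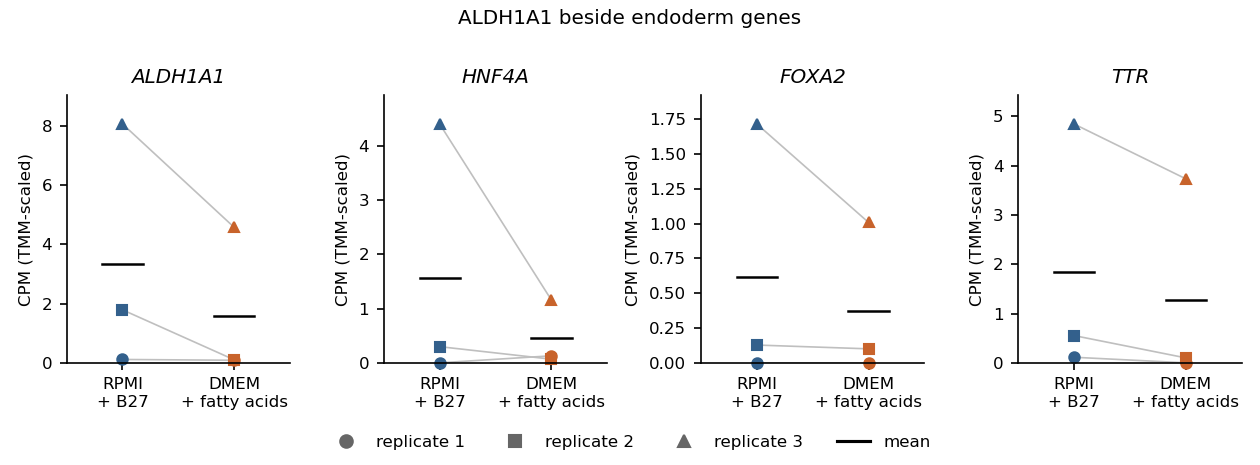
CPM of ALDH1A1, of the endoderm factors HNF4A and FOXA2, and of TTR in each library (y axes linear from 0), with lines joining equal replicate numbers and black bars for the mean. In each panel replicate 3 is the highest library of its medium.

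ALDH1A2 (chr15:57953424-58497866, minus strand), the main retinoic acid-producing enzyme of the embryo and of the epicardium, was present only in traces. Its 25, 14 and 18 counts in RPMI plus B27 and 7, 2 and 21 in DMEM plus fatty acids corresponded to 0.942, 0.596 and 0.671 CPM against 0.301, 0.0669 and 0.622 CPM. DMEM plus fatty acids replicate 3 lay within the range of the other medium, and the paired log2 ratios were -1.64, -3.15 and -0.11. The log2 fold change of -1.12 ± 0.65 (SE) did not pass (edgeR adjusted p 0.410, and 0.240 with the block). ALDH1A1 made up 10.7%, 75.0% and 92.3% of the counts of both enzymes in RPMI plus B27 and 22.2%, 60.0% and 88.0% in DMEM plus fatty acids, on totals as low as 5 counts. The Wilson 95% intervals ran from 3.71% to 27.2% for the lowest of these and from 88.2% to 95.1% for the highest. The means differed by -2.60 points (exact two-sided permutation test, p = 0.9), and that difference ranged from -26.9 to 14.7 points when 1 library was left out, changing sign without RPMI plus B27 replicate 2 or 3 or DMEM plus fatty acids replicate 1.

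Levels of different genes can be compared only per length, and for this CPM was divided by the length of all exons of GENCODE 29 in kilobases (RPKM). In RPMI plus B27, CRABP2 was highest at 612 ± 189 RPKM (SD, n = 3). RARA (17.7 ± 4.56 RPKM) and DHRS3 (16.7 ± 3.61 RPKM) followed and overlapped each other, as did RARB (6.32 ± 0.309 RPKM) and STRA6 (5.62 ± 0.756 RPKM). ALDH1A1 stood at 1.16 ± 1.47 RPKM, and CYP26A1 (0.187 ± 0.148 RPKM), CRABP1 (0.139 ± 0.133 RPKM) and ALDH1A2 (0.0854 ± 0.0211 RPKM) had the lowest means, with overlapping ranges. The range of ALDH1A1, 0.0397 to 2.83 RPKM, overlapped all of theirs. In DMEM plus fatty acids CRABP2 again led at 117 ± 35.5 RPKM. RARA (9.29 ± 2.26 RPKM), DHRS3 (7.71 ± 1.59 RPKM) and STRA6 (7.41 ± 2.90 RPKM) overlapped there, so that STRA6 stood above RARB (3.74 ± 1.26 RPKM), with overlapping ranges, in place of below it. CYP26A1 had the lowest mean at 0.00708 ± 0.00616 RPKM, with a range that overlapped those of CRABP1 and ALDH1A2.

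Beyond these genes, 59 others of the pathway were listed by role, of which 40 could be tested. Without the block 0 of the 40 were called by edgeR, beside 1.36% of all tested genes, and 7 had an unadjusted p under 0.05. The DESeq2 Wald test called 2, beside 7.53% of all genes it tested, so these calls are no more than the background. Of all tested genes 17.7% had an unadjusted p under 0.05, so that 7 of 40 is close to the background. With the block 2 were called, both lower in DMEM plus fatty acids, which is likewise close to the 4.78% of all genes. The median log2 fold change of the 40 was -0.05, with 19 estimates above and 21 below 0. The media did not overlap for 8 of the 40, all named below, which is no more than the 25.6% of all tested genes.

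The 2 called with the block, and by DESeq2, were TGM2 and RAI14, both known to be induced by retinoic acid. TGM2, tissue transglutaminase, was at 1279, 679 and 1153 CPM in RPMI plus B27 and 480, 249 and 317 CPM in DMEM plus fatty acids (log2 fold change -1.57 ± 0.32 SE, edgeR adjusted p 0.0657 without and 0.0119 with the block). RAI14, an actin-associated ankyrin repeat protein, was at 265, 276 and 256 CPM and at 119, 150 and 81.7 CPM (-1.19 ± 0.21 SE, edgeR adjusted p 0.0513 and 0.0223). Neither gene overlapped between media (25.6% of all tested genes did not). Of the 21 listed genes known to respond to retinoic acid, 11 could be tested, their median was -0.09, and MEIS1 was higher without overlap but did not pass (0.41 ± 0.11 SE, edgeR adjusted p 0.136). NR2F1, a responsive transcription factor of atrial cells named here after its values were seen, was too low to test, with 74, 4 and 6 counts in RPMI plus B27 and 1, 1 and 0 in DMEM plus fatty acids. Of the listed HOX genes, 3 could be tested and did not pass, namely HOXB2 (log2 fold change 0.27 ± 0.32 SE), HOXB5 (1.37 ± 0.67 SE) and HOXB4 (-0.21 ± 0.68 SE). HOXA3, HOXA4, HOXA5 and HOXB1 had 0 to 8 counts per library.

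On the supply side of the pathway edgeR called no tested gene without the block or with it. Of all tested genes 1.36% and 4.78% were called. With so few genes tested, the absence of calls does not set these lists apart from the rest. Among 4 tested carriers RBP5 had a log2 fold change of -0.16 ± 0.44 (SE). Among 5 tested ester and carotenoid enzymes, DGAT1 (0.41 ± 0.13 SE) and the retinol saturase RETSAT (0.34 ± 0.12 SE) were higher without overlap between media, with edgeR adjusted p values of 0.184 and 0.213. Of 7 tested oxidoreductases, the smallest p values were those of DHRS9 (-1.27 ± 0.55 SE) and DHRS4 (0.30 ± 0.25 SE). ALDH8A1, a dehydrogenase listed beside CYP26B1, had -1.03 ± 0.58 (SE). ALDH1A3, the remaining retinal dehydrogenase, had 0 to 2 counts per library.

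Of 5 tested receptors and carriers to them, RXRG, the RXR of striated muscle, was lower without overlap at 41.1, 32.6 and 64.7 CPM in RPMI plus B27 and 13.5, 25.6 and 30.1 CPM in DMEM plus fatty acids. It did not pass without the block (log2 fold change -1.0 ± 0.35 SE, edgeR adjusted p 0.203) or with it (0.0708). RXRA, its broadly expressed relative, had 0.33 ± 0.15 (SE, edgeR adjusted p 0.308). Among 6 tested coregulators the coactivators NCOA1 (0.46 ± 0.18 SE) and NCOA2 (0.36 ± 0.16 SE) were higher without overlap and did not pass.

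**Figure D4:**
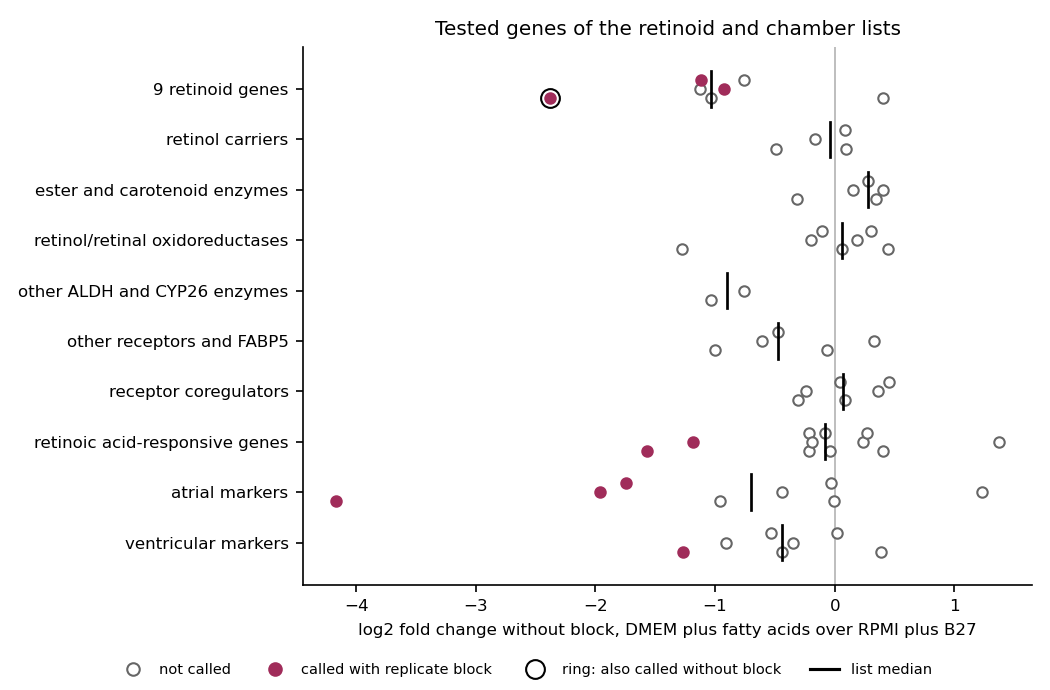
Log2 fold change without the block (x axis, positive where DMEM plus fatty acids was higher) of each tested gene in the retinoid lists and in the atrial and ventricular marker lists; filled points were called with the replicate block, the ringed point also without it, and vertical bars are list medians. The ringed point is CRABP2, and TGM2 and RAI14 are the filled points among retinoic acid-responsive genes.

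Chamber markers were listed because of the role of retinoic acid in atrial identity. None of 8 atrial and 7 ventricular markers passed in edgeR without the block, where 3 and 2 had an unadjusted p under 0.05 (17.7% of all tested genes did). The DESeq2 Wald test called 2 and 1 (7.53% of all genes it tested). With the block 3 atrial (NPPA, SLN and KCNA5) and 1 ventricular marker (MYH7) passed, all lower in DMEM plus fatty acids. Of all tested genes 4.78% passed with the block. Estimates without the block were below 0 for 7 of the 8 atrial and 5 of the 7 ventricular markers. Of the atrial ones, MYL7 (-0.0033 ± 0.35 SE) and GJA5 (-0.034 ± 0.55 SE) hardly differed from 0. KCNJ3 was above 0 (1.23 ± 0.95 SE). SLN, the atrial regulator of the calcium pump, was at 8.10, 4.34 and 1.01 CPM in RPMI plus B27 and 0.388, 0.0669 and 0.296 CPM in DMEM plus fatty acids (edgeR adjusted p 0.0751 without and 0.0403 with the block). KCNA5, an atrial potassium channel, was highest in replicate 1 of both media, at 35.9 and 8.31 CPM (edgeR adjusted p 0.412 and 0.0245). The atrial natriuretic peptide gene NPPA had a log2 fold change of -1.75 ± 0.35 (SE, edgeR adjusted p 0.0646 and 0.0460), and MYH7, the beta myosin heavy chain, -1.27 ± 0.39 (SE, edgeR adjusted p 0.163 and 0.0359). List medians were -0.70 for atrial and -0.44 for ventricular markers, and the difference between the lists was not tested.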

How the data were processed

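The deposited values are raw, unnormalized counts for each gene symbol in each library. The submitters' processing notes name STAR, HTSeq and hg38; versions, annotation and strand setting are not given in the sources used here. Per the labels' protocols, total RNA was made into libraries with a stranded kit for mRNA. Gene rows held 84.4% to 87.2% of each file and the summary rows the rest, which stayed out of library sizes and tests: 5.44% to 7.57% of reads fell in no gene, 3.90% to 4.15% were ambiguous and 3.05% to 4.10% aligned to more than 1 place.

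The main test was that of edgeR 4.0.16, run in R 4.3.3 (filterByExpr with minimum count 10 and minimum total count 15, TMM, quasi-likelihood test, Benjamini-Hochberg, threshold 0.05), without covariates over all 6 libraries. SEs are those implied by the F statistic. The fit was tested on simulated data. Alternatives were RLE factors, total counts only, DESeq2 1.42.0, other filters, the replicate block and leaving out each library. Deviations from the medium's mean correlated across genes at 0.31, 0.43 and 0.37 for libraries of equal replicate number and at -0.24 to -0.14 for others. Deviations sum to 0 within a medium, so positive values for equal numbers by themselves bring the others below 0. Equal numbers were taken as pairs on the same data as the fits, and what a number stands for is not labelled. The fit with the block leaves 2 residual degrees of freedom, against 4 without it.

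The genes and lists were chosen with earlier results of these data known. Every one of the 9 genes is named; of the other lists, genes called in either fit, or else the 2 with the smallest p, and for CRABP2 the 5 most similar patterns. 1 gene that this rule selects is not reported here. MEIS1, NR2F1, TTR, RARA-AS1, TOP2B, ALDH1A3, TEK and the other low endothelial genes, SOX17, APOA1, MYL7, GJA5, KCNJ3 and the HOX genes lie outside that rule. So do the cardiomyocyte and epicardial markers named singly. All of these and the tests of CYP26A1 and CRABP1 counts were chosen after values were seen. Intervals and the limit of 3 counts for a count of 0 cover counting error only, since the labels name no molecular identifiers. Coordinates and exon lengths are from GENCODE 29 (GRCh38) and promoter windows from RefSeq.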

Additional observations from a re-analysis of the deposited data

How the results depend on the processing

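The number of all genes called, 219, was 217 with RLE size factors and 202 with total counts only, and 1212 by the DESeq2 Wald test, 539 without a filter, 119 under the stricter filter (10 counts or more in every library) and 770 with the replicate block. Leaving out 1 library gave 3 to 131. Of the 9 retinoid genes, 1 was called, and 3 were called by DESeq2 (CRABP2, DHRS3, RARA), 3 without a filter (CRABP2, DHRS3, CYP26A1) and 3 with the replicate block (CRABP2, DHRS3, RARA), while leaving out 1 library gave 0 or 1. Of the other pathway genes 0 were called, and 2 by DESeq2, 2 without a filter and 2 with the block, in each case TGM2 and RAI14. Leaving out 1 library gave 0 throughout. CRABP2, STRA6, DHRS3, ALDH1A2, RARA and RARB kept their direction in all their alternatives. ALDH1A1 ranged from -5.07 to 0.78 when 1 library was left out and reversed once, without RPMI plus B27 replicate 3. The stricter filter gave no value for ALDH1A1 and ALDH1A2. Shares within pairs of replicates (replicate block, exact sign-flip test) differed by -0.0426 points for CRABP2 (p = 0.5), -2.60 for ALDH1A1 (p = 0.75) and 0.455 for RARB (p = 1.0); 3 pairs cannot give a p under 0.25. Leaving out 1 library moved them from -0.0772 to -0.0226, -26.9 to 14.7 and -1.94 to 3.24 points. CRABP1 and CYP26A1 have no value in the filtered fits. The biological coefficient of variation was 25.6% without and 18.2% with the block. Counts of 0 to 25 per library limit the precision for CRABP1, CYP26A1 and ALDH1A2. Counts of 2 to 42 in replicates 1 and 2 of both media do so for ALDH1A1.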
